A study of Mus musculus with 8 samples.

Results

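Apoe, Spp1, Trem2, Gpnmb, Fabp4, Fabp5, Lpl, Cd36, Plin2 and Abca1 are genes of lipid uptake, lipid storage, lipid export and the phagocyte state that goes with them in macrophages. They were taken by symbol from the count tables, in which all 10 of the 10 symbols were found among 27923 genes. Their unique molecular identifiers (UMIs, 1 for each captured RNA molecule) were summed within 4 kinds of macrophage, within neutrophils and within epithelial cells, library by library. The kinds were set by gates on other genes, so no value of the 10 genes placed a cell in a class.

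The samples were 2 lung tumors, Tumor 1 and Tumor 2, each from 1 genetically engineered mouse, and single cells were profiled by Seq-Well, a method that captures RNA 3' ends on beads in microwells. The mice were high-degree chimeras of engineered embryonic stem cells, C57BL/6, with p53 fl/fl among the alleles of all groups, and tumors were started at 12 weeks of age with an adenovirus that makes Cre from the SPC promoter, which restricts recombination to surfactant-producing lung epithelium, and taken 16 weeks later. From each tumor, 1 library held cells of the Healthy/Tumor Border, sorted after light had uncaged a calcein dye in that region (SPACECAT), and 3 libraries were technical arrays of the Whole Tumor, which was not photoactivated. The arrays of a tumor share 1 mouse, so that the spread between libraries is partly technical and a difference between the tumors is a difference between 2 mice, and the engineered alleles are shared by every group.

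Macrophages take up lipid through scavenger receptors such as Cd36 and through lipolysis by Lpl, carry fatty acids inside the cell on Fabp4 and Fabp5, store them in droplets coated by Plin2, and send cholesterol out through Abca1 onto apolipoproteins such as Apoe. Trem2 is a surface receptor for lipids and lipoproteins, and Spp1 and Gpnmb are often found beside it in macrophages of tumors, fatty tissue and injured lung. Alveolar macrophages clear surfactant, and their identity depends on the lipid-sensing receptor encoded by Pparg.

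RefSeq promoter windows (GRCm38.p6, 250 bases before to 50 bases after the start) were held for 7 of the 10 genes, in 10 windows. A window of Apoe and the window of Abca1 are shown because these genes were higher together in C1q-gated macrophages. The windows of Gpnmb and Plin2 are shown because these genes were higher together in alveolar-gated macrophages. Capitals mark every match, on either strand, to CACGTG (an E-box), AGGTCA (a nuclear receptor half-site), the DR1 and DR4 elements (direct repeats of that half-site with 1 base or 4 bases between), TGANTCA (AP-1) or GAGGAA (the core bound by PU.1), and none of these overlapped another in the windows shown.
Apoe, chr7:19699139-19699438, minus strand: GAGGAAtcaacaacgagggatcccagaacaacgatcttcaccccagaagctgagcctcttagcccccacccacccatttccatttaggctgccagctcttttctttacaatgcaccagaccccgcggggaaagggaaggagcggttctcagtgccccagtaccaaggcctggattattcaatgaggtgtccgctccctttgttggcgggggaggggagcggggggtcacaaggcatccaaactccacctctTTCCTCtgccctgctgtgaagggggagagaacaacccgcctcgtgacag
Abca1, chr4:53159846-53160145, minus strand: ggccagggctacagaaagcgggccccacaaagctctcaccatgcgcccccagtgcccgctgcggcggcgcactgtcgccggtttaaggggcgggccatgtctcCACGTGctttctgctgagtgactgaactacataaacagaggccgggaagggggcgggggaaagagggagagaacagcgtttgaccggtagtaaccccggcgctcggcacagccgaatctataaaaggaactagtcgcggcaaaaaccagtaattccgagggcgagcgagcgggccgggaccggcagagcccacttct
Gpnmb, chr6:49036268-49036567, plus strand: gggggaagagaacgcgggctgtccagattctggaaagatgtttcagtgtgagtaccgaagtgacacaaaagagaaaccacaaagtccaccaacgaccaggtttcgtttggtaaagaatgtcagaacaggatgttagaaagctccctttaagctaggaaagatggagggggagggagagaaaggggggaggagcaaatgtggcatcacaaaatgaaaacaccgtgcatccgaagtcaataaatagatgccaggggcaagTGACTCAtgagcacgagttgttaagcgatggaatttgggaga
Plin2, chr4:86670010-86670309, minus strand: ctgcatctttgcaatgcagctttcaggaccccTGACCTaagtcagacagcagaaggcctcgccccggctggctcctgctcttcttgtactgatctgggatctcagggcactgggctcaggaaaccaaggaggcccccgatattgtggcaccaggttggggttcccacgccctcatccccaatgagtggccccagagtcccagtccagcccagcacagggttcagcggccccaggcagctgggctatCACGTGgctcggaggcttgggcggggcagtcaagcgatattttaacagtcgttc
In the Abca1 window CACGTG began 147 bases before the start, and in the Plin2 window 4 bases before it, while the share of all 32851 windows that held it was 7.15%. Plin2, Cd36 and Trem2 windows held AGGTCA, as did 16.3% of all windows, and the Gpnmb and Trem2 windows held TGANTCA, as did 7.81%. GAGGAA lay in windows of Apoe, Spp1 and Trem2 and in 28.3% of all windows. Further Apoe windows are not shown. That at chr7:19698572-19698871 had no match, and that at chr7:19698349-19698648 had GAGGAA 132 bases before its start. None of the 10 windows held DR1 or DR4, which 0.0396% and 0.0152% of all windows held. These are matches of letters and say nothing of binding.

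Of 4343 barcodes, 3894 had at least 200 genes. The 8 libraries held 374369 to 2019162 UMIs in these barcodes, with medians of 676 to 2526 UMIs per barcode, and the shallowest was Whole 2.2, the second array of Tumor 2. The gates placed 203 barcodes in the C1q, 98 in the alveolar and 95 in the Mmp12 kind, 1558 in the neutrophil and 230 in the epithelial class, and left 1120 unassigned. The gated classes held the genes they are named for: the C1q list summed to 6977 CPM (UMIs scaled to equal totals) in C1q-gated barcodes and 22.8 CPM in alveolar-gated barcodes, and the alveolar list to 12768.5 and 66.3 CPM. Cell names inside the 8 files carry the number of the other tumor, and the tumors are named here by their labels. The numbers of barcodes in the border and Whole Tumor libraries of each label are those the study gives for that tumor. The 10 barcode sequences found in more than 1 library were all primer-like, and 21 primer-like barcodes lay in the 6 classes. The kinds are ranges of a score, and with at least 6 marker UMIs for the class and 4 for the kind these kinds held 179, 88 and 83 barcodes. The macrophage share of a library was 0.161% at the Tumor 1 border (1 of 620 barcodes, exact interval 0.00408 to 0.895%), 11.1 to 13.8% in the Whole Tumor 1 arrays, 32.8% at the Tumor 2 border and 15.9 to 18.2% in the Whole Tumor 2 arrays. The 1 barcode of the Tumor 1 border, of the Mmp12 kind, is counted in the pooled values of that kind, and this library gave no macrophage value of its own. C1q and alveolar kinds were almost all from Tumor 2 (193 of 203 and 93 of 98 barcodes).

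Wells take up free RNA, so the 190 lymphocyte-gated barcodes, which should lack most of these transcripts, gave the background. In them Trem2 and Gpnmb had 0 UMIs, which by a limit of 3 counts allows a share of barcodes with a UMI of up to 1.58% (3 of 190). The upper end of the exact binomial interval is 1.92%. Fabp4, Fabp5 and Lpl had 1 UMI each. Apoe reached 14.7% of lymphocyte-gated barcodes (26.9% of B and 6.25% of T or NK cells), Plin2 16.8% (6.41% and 24.1%) and Abca1 13.7% (28.2% and 3.57%), at median depths of 2240.5 UMIs in T or NK and 2492.5 UMIs in B cells against 3097 to 3841 UMIs in the C1q, alveolar and Mmp12 kinds. Shares within these are not read as expression below. Intervals and floors here cover counting error only.

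**Figure D1:**
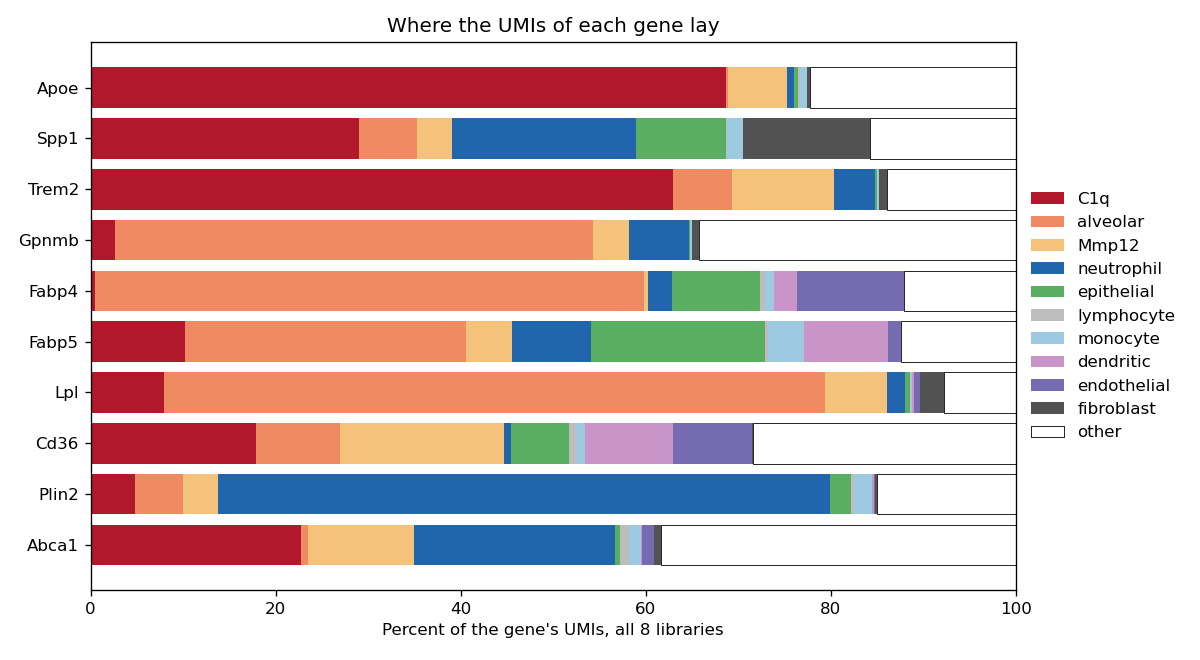
Percent of each gene's UMIs over all 8 libraries (x axis) that lay in each gated class (colors) or in any other barcode (white), 1 bar per gene. Apoe and Trem2 lie mostly in the C1q kind, Lpl, Fabp4 and Gpnmb mostly in the alveolar kind, and Plin2 mostly in neutrophils.

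The 10 genes did not form 1 block. Together they made up 202 of each 10000 UMIs in the macrophage kinds, 37.2 in neutrophils, 14.8 in epithelial and 4.07 in lymphocyte-gated barcodes, and among the kinds 352 in C1q, 107 in Mmp12 and 64.4 in alveolar. Without Apoe these were 44 in C1q, 44.1 in Mmp12 and 62.9 in alveolar, so that the order rests on Apoe. The macrophage kinds held 96.5% of all Apoe UMIs, 90.5% of Lpl, 89.4% of Trem2 and 85.6% of Gpnmb, but 21.6% of Plin2. Over all genes they held 2698086 UMIs, against 3716900 in neutrophils. The median macrophage barcode of every kind had 4 of the 10 genes detected, and the median neutrophil or epithelial barcode 1. At least 5 were seen in 48% of alveolar-gated, 36.9% of C1q-gated and 0.321% of neutrophil-gated barcodes, and neutrophil barcodes are shallower, with a median of 2113.5 UMIs.

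**Figure D2:**
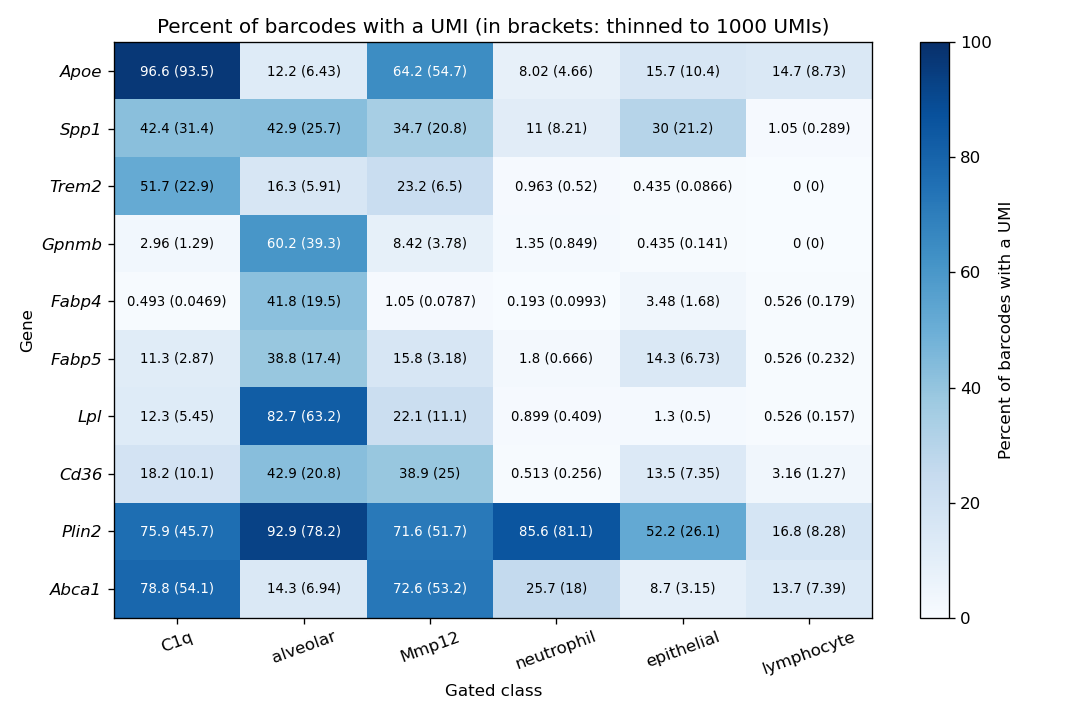
Percent of barcodes with at least 1 UMI for each gene (rows) in each gated class (columns), with the share expected after thinning each barcode to 1000 UMIs in brackets. Apoe was found in 96.6% of C1q-gated and 12.2% of alveolar-gated barcodes, and Lpl in 12.3% and 82.7%.

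Apoe and Abca1, the export pair, separated the C1q from the alveolar kind. Apoe (chr7:19696109-19699188, minus strand, GRCm38) encodes the apolipoprotein that macrophages secrete with cholesterol. In the C1q kind it stood at 33852 CPM at the Tumor 2 border and at 23259.9, 40854 and 26241 CPM in the Whole Tumor 2 arrays, whereas in the alveolar kind the same libraries gave 17.4, 59.2, 45.7 and 229 CPM. The values of these kinds did not overlap in any library, and the alveolar values lay within or under the 58.5 to 466 CPM of lymphocyte-gated barcodes. In the Mmp12 kind Apoe ranged from 2367 to 16155 CPM. Its level in that kind was 13277 CPM in Tumor 1, where 648 of the 1755 UMIs came from 1 barcode, and 3215 CPM in Tumor 2. This difference was not tested, since too few arrays of Tumor 1 had 10 barcodes of the kind. The C1q kind went the other way, with 6656 CPM in the 10 barcodes of Tumor 1, below the Mmp12 kind of that tumor, and 31845 CPM in Tumor 2, which was not tested either. Abca1 (chr4:53030787-53159895, minus strand) encodes the transporter that loads cholesterol onto apolipoproteins. It was at 787 CPM at the border and 1219.6, 1815 and 2667 CPM in the Whole Tumor 2 arrays for the C1q kind, and at 208, 94.7, 76.2 and 46.8 CPM for the alveolar kind. Here too the kinds were apart in every library. The Mmp12 kind, with 414 to 2264 CPM, overlapped the C1q kind.

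Lpl, Fabp4, Fabp5 and Gpnmb had the opposite pattern. Lpl (chr8:68880491-68907448, plus strand) encodes the lipase that frees fatty acids from lipoproteins. It was at 2778 CPM at the Tumor 2 border and at 1574, 1479 and 1708 CPM in the arrays in the alveolar kind, and it ranged from 11.7 to 162 CPM in the C1q and 11.8 to 228 in the Mmp12 kind. Each alveolar sum lay above each sum of those kinds. Fabp4 (chr3:10204088-10208576, minus strand) and Fabp5 (chr3:10012548-10016607, plus strand) encode cytosolic fatty acid carriers. Fabp4 was at 677, 296, 274 and 164 CPM in the alveolar kind of these libraries. In the C1q and Mmp12 kinds it had 1 UMI each in all libraries together, so that its level in the alveolar kind was 256 times that in the C1q kind with a counting interval of 45 to 10189 times. Fabp5 was at 313, 118, 381 and 267 CPM in the alveolar kind. It was also detected in the C1q kind, at 0 to 194 CPM, and the Mmp12 kind, at 0 to 94.3 CPM, and the C1q value of Whole 2.2 lay above the alveolar value of Whole 2.1. Gpnmb (chr6:49036546-49070929, plus strand), a glycoprotein of lysosomes and the cell surface, was at 695, 449.7, 1219.9 and 866 CPM in the alveolar kind. In the C1q kind it was at 27.7 and 12.4 CPM in the border library and Whole 2.1 and at 0 in the other arrays of Tumor 2. The Mmp12 kind had 0 to 310 CPM of Gpnmb.

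**Figure D3:**
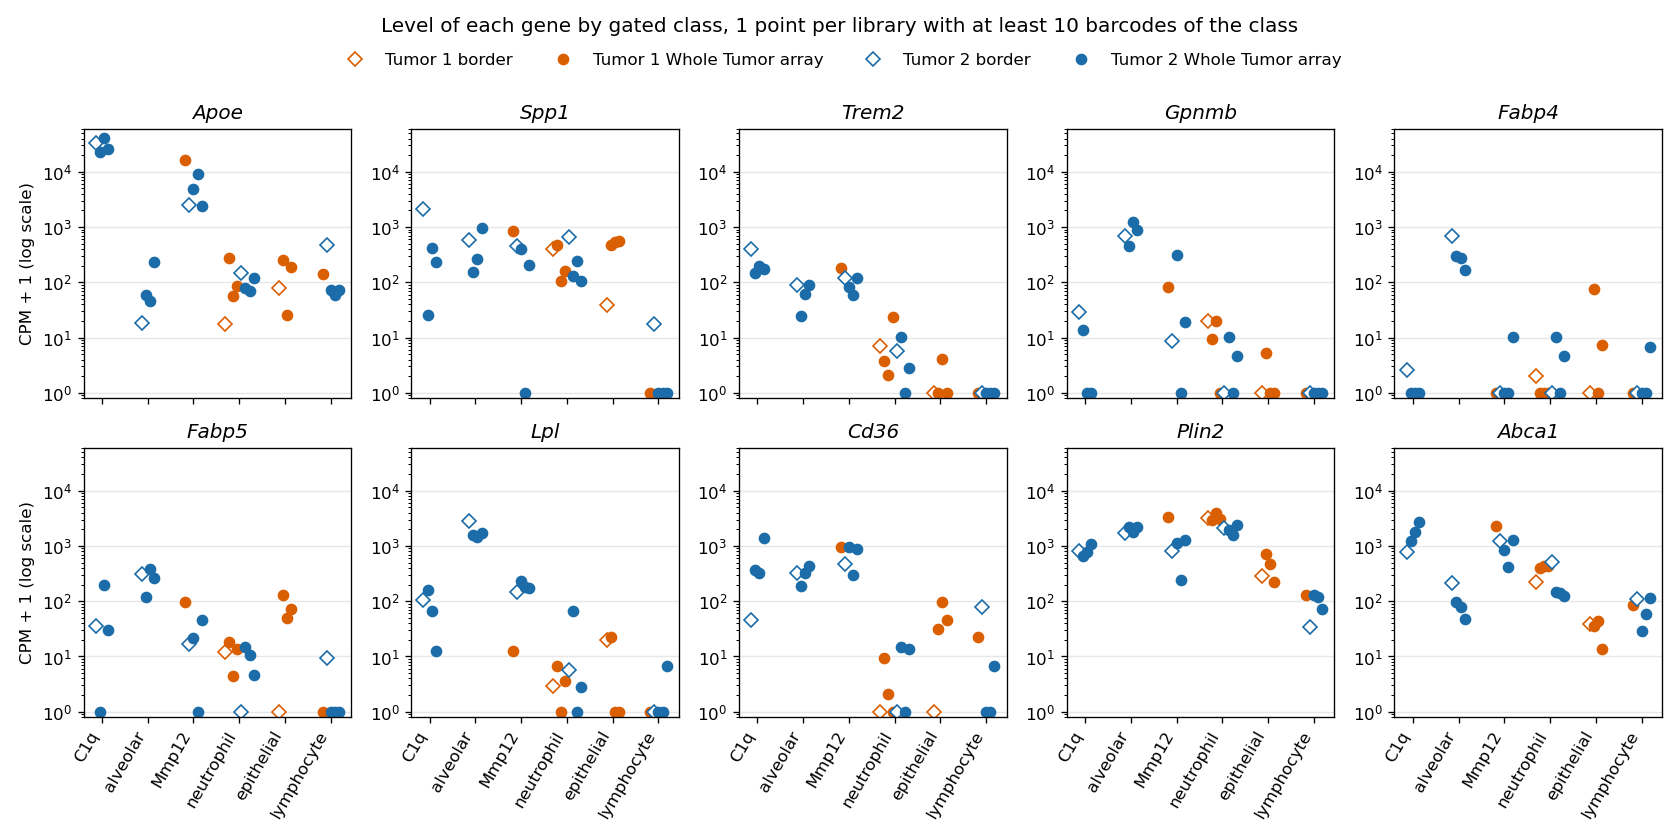
Level of each gene (CPM + 1, log axis) in each gated class, 1 point per library with at least 10 barcodes of the class, diamonds for border and circles for Whole Tumor libraries, colored by tumor. Apoe and Abca1 are lowest among macrophages in the alveolar kind, Lpl and Fabp4 are highest there, and Gpnmb is highest there by the median over libraries.

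The receptors differed from each other. Trem2 (chr17:48346401-48354147, plus strand) was at 398 CPM at the Tumor 2 border and 149, 194 and 175 CPM in the arrays for the C1q kind. It was at 23.7 to 88.9 CPM in the alveolar kind, below each C1q sum, and at 59.2 to 177 CPM in the Mmp12 kind. In the Mmp12 kind of Whole 1.2, 13 of the 15 UMIs came from 1 barcode. Cd36 (chr5:17781690-17888801, minus strand), the scavenger receptor for fatty acids and oxidized lipoproteins, lay between 189 and 1392 CPM in each of these kinds and libraries but the C1q kind of the Tumor 2 border, where it was at 44 CPM. By library it was in 28.6 to 63.6% of alveolar-gated, 30 to 47.4% of Mmp12-gated and 10.7 to 38.1% of C1q-gated barcodes. These ranges overlapped, and the lowest C1q share was that of the border library.

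Plin2 and Spp1 were found in all of these kinds. Plin2 (chr4:86648386-86670060, minus strand), which coats lipid droplets, was found by library in 85.7 to 97.2% of alveolar-gated, 71.4 to 81% of C1q-gated and 10 to 100% of Mmp12-gated barcodes, at 1719 to 2225 CPM in the alveolar, 647 to 1082 in the C1q and 237 to 3408 in the Mmp12 kind. The alveolar and C1q ranges did not overlap. Spp1 (chr5:104435118-104441050, plus strand), the secreted phosphoprotein osteopontin, varied more between libraries than between kinds. It ran from 24.9 to 2137 CPM within the C1q kind, 154 to 959 within the alveolar and 0 to 861 within the Mmp12 kind. A gene model of type TEC, Gm42793, overlaps Spp1 on the same strand in GENCODE M21.

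Each kind was then compared with the mean of the other 3 within the same libraries (edgeR quasi-likelihood, library as a block, 16 sums from 5 libraries, 8 residual degrees of freedom, 2592 genes tested, Benjamini-Hochberg over all of them). All 10 genes passed the filter on low counts. Of all genes tested, 7.33% were called higher and 2.7% lower in the C1q kind. Among the 10, Apoe was higher by 4.73 ± 0.36 on the log2 scale (SE, edgeR adjusted p = 1.71e-08) and Abca1 by 1.88 ± 0.35 (adjusted p = 0.000829), and Lpl (-2.49 ± 0.43, adjusted p = 0.000419), Gpnmb (-3.50 ± 0.78, adjusted p = 0.00422) and Fabp4 (-3.99 ± 1.22, adjusted p = 0.0399) were lower. Trem2 missed the threshold in edgeR (log2 change 1.27 ± 0.41, adjusted p = 0.0537). Its adjusted p was 0.0116 without Whole 1.2, the only Tumor 1 library in the fit, and 0.0267 without Whole 2.3, and it also passed with at least 500 genes per barcode (0.0309), without primer-like barcodes (0.0127) and with no filter on low counts (0.00654). The Fabp4 call rests on 1 UMI in the C1q kind and was lost without any 1 of the 4 Tumor 2 libraries, with edgeR adjusted p from 0.0745 to 1. Its log2 change in these fits was -4.22 to -3.35, so the call was lost but the size was not. The Fabp4 call was also lost with no filter on low counts (log2 change -3.81, edgeR adjusted p = 0.15). With at least 6 marker UMIs for the class and 4 for the kind, Fabp4 (-3.09, edgeR adjusted p = 0.337) and Gpnmb (-2.99, adjusted p = 0.0628) were both lost. The Gpnmb call was lost with at least 500 genes per barcode (log2 change -0.65, adjusted p = 0.691), and with sums per tumor the calls of Lpl (log2 change -2.32, adjusted p = 0.143), Abca1 (1.17, adjusted p = 0.12) and Fabp4 (-3.86, adjusted p = 0.262) were lost in edgeR.

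The alveolar kind had the most calls, 13.7% of all genes higher and 11.6% lower. Of the 10 genes, 5 were higher: Fabp4 by 6.51 ± 0.54 (SE, log2 scale, edgeR adjusted p = 1.5e-07), Lpl by 3.60 ± 0.33 (3.12e-07), Gpnmb by 3.38 ± 0.55 (0.000156), Fabp5 by 2.90 ± 0.48 (0.000177) and Plin2 by 1.11 ± 0.30 (0.00976). Apoe was lower, with a log2 change of -6.32 ± 0.54 (edgeR adjusted p = 1.89e-07), as was Abca1, with -3.61 ± 0.46 (1.38e-05). The median log2 change of the 10 was 0.77 against 0.03 over all genes tested. The Plin2 call was lost with sums per tumor (log2 change 0.84, edgeR adjusted p = 0.578). For Trem2 the log2 change was -1.17 ± 0.50 (edgeR adjusted p = 0.0917) and passed without Whole 1.2 (adjusted p = 0.0117), and Cd36 and Spp1 did not pass.

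In the Mmp12 kind 6.48% of genes were called higher and 2.16% lower, and none of the 10 was among them in edgeR. For the Mmp12 kind the smallest adjusted p was that of Lpl, 0.102 (log2 change -1.06 ± 0.39, edgeR), with Apoe next at 0.124 (0.90 ± 0.35). Without Whole 2.3 both passed, Apoe with 1.47 (adjusted p = 0.00546) and Lpl with -1.42 (adjusted p = 0.0359). DESeq2 also called 0 of the 10 in this kind, and the unadjusted edgeR p was under 0.05 for 4 of the 10.

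**Figure D4:**
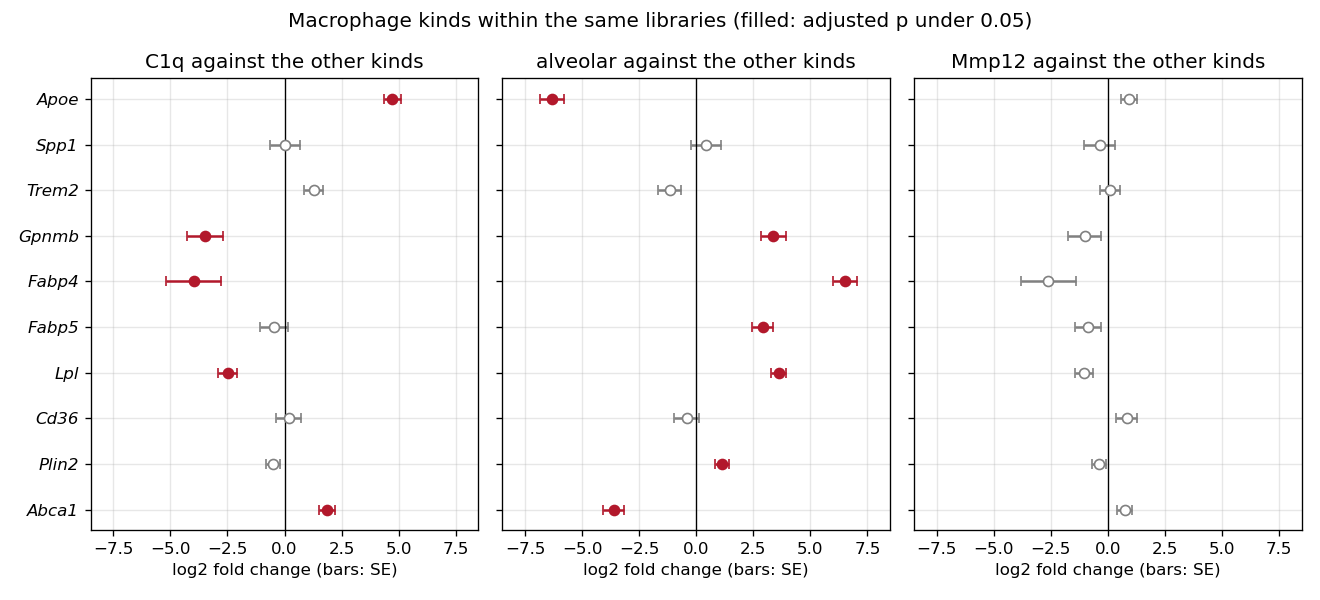
Log2 fold change (x axis, bars SE) of each gene in each macrophage kind against the mean of the other kinds within the same libraries, filled where the edgeR adjusted p was under 0.05. Apoe and Abca1 lie above 0 in the C1q panel and Fabp4, Lpl and Gpnmb in the alveolar panel; each kind is part of the other panels' reference means, so the panels are not independent.

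A pair of gene lists gives the wider pathway. Of 40 other lipid-handling genes (receptors, lipases, carriers and sterol sensors), 22 were tested among the kinds. In the alveolar kind 11 of them were higher and 1 lower, with a median log2 change of 0.96 against 0.03 for all genes. The highest were Fabp1 (7.24), a further fatty acid carrier, Mgll (4.28), a monoglyceride lipase, Olr1 (3.45), a receptor for oxidized lipoprotein, and Abcg1 (3.43), a sterol exporter, and the lower one was Pltp (-2.52), a phospholipid transfer protein. In the C1q kind 1 was higher, Pltp (1.70), and 4 were lower, Olr1 (-4.77), Mgll (-3.45), Abcg1 (-2.08) and Hilpda (-1.60), an inhibitor of droplet lipolysis. Of the sterol exporters, Abca1 was higher and Abcg1 lower in the C1q kind, and the reverse held in the alveolar kind, which is part of the mean that the C1q kind was set against. The Mmp12 kind had 2 lower, Msr1 (-1.86) and Cpt1a (-1.27). Of 16 phagocyte genes linked to Trem2, 15 were in the tables and 11 were tested. In the C1q kind 3 were higher, among them Cd63 (2.01) and Ctsb (1.15), lysosomal genes, and Cd9 (-1.78) and Lgals3 (-0.89) were lower. In the alveolar kind 5 were higher, among them Cd9 (2.54), Ctsd (2.01), Axl (1.41) and Itgax (1.09), and 3 lower, among them Cd63 (-1.58) and Syk (-0.81). The Mmp12 kind had 2 higher, Itgax (1.18) and Lgals3 (0.75), and 1 lower, Tyrobp (-0.74).

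Within single barcodes of the alveolar kind (98), Lpl was found in 89.8% of those with Gpnmb and in 71.8% of those without, and in 97.6% of those with Fabp4 and 71.9% of those without. Fabp4 was found in 55.9% of the barcodes with Gpnmb and in 20.5% of those without. In the C1q kind 103 of 203 barcodes held Apoe and Trem2, and Trem2 was found in 73.3% of the barcodes with Spp1 and in 35.9% of those without, whereas Cd36 was found in 10.5% and 23.9%. Barcodes with more UMIs hold more of any gene, and most C1q barcodes with Spp1 came from 1 library, so these shares are descriptions.

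Against neutrophils, 9 of the 10 genes were higher in macrophages and Plin2 was lower. The comparison used the 7 libraries with at least 10 barcodes of each (14 sums, 6136 genes), and 24.1% of all genes were called higher and 20.2% lower in macrophages. Plin2 was at 3008 to 3884 CPM in neutrophils of the Tumor 1 arrays and 1554 to 2359.8 CPM in those of Tumor 2, against 1384 to 1874 and 1244 to 1620.5 CPM in the macrophages of the same arrays. In each of the 7 libraries it was higher in neutrophils than in the macrophages of all kinds together. The log2 change was -0.97 ± 0.22 (SE, edgeR adjusted p = 0.00253). In single kinds Plin2 ranged from 1719 to 2225 CPM (alveolar), 237 to 3408 CPM (Mmp12) and 647 to 1082 CPM (C1q). The alveolar and Mmp12 ranges overlapped that of neutrophils. Neutrophils held 66.1% of all Plin2 UMIs and were 40% of the barcodes. The call of Plin2 as lower in macrophages stood in each of the alternatives run. Cd36 was the reverse case: it was at 146 to 782 CPM in macrophages and at 0 to 13.8 CPM in neutrophils, a log2 change of 6.38 ± 0.55 (edgeR adjusted p = 1.52e-06). Apoe (6.75 ± 0.40, adjusted p = 1.74e-07), Lpl (4.86 ± 0.69), Gpnmb (4.83 ± 0.54), Fabp4 (4.09 ± 0.58), Trem2 (3.74 ± 0.56), Fabp5 (2.70 ± 0.52), Abca1 (2.11 ± 0.29) and Spp1 (1.29 ± 0.37, adjusted p = 0.0119) were higher in macrophages by edgeR. In neutrophils Apoe was in 8.02% of barcodes, between the 6.25% of T or NK cells and the 26.9% of B cells, so that it cannot be told apart from background. Spp1 had 972 UMIs in neutrophils and 2 in lymphocytes, a ratio of CPM of 68.8 with a counting interval of 19 to 569, and Abca1 was in 25.7% of neutrophil barcodes, against 28.2% of B and 3.57% of T or NK cells. With barcodes thinned to 1000 UMIs, leaving out shallower ones (1290, 74 and 102 kept), these Abca1 shares were 18%, 14.9% and 1.95%. Its level over both tumors was 308 CPM in neutrophils (exact Poisson interval 290.5 to 326 CPM, counting error only) and 182 CPM in B cells (132 to 245 CPM). Within each tumor the intervals of neutrophils and B cells overlapped. They were 328 to 373 and 127 to 362 CPM in Tumor 1, and 179 to 235 and 108 to 239 CPM in Tumor 2. The single barcode with the most Spp1 UMIs held 111 of the 398 of the Tumor 1 border and 70 of the 168 of Whole 1.1.

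Of the other lipid-handling genes 30 were tested here, with 14 higher and 5 lower in macrophages. Fabp1 (5.76), Pltp (5.72), Msr1 (5.24) and Apoc2 (3.83) led the higher ones, and Dgat2 (-4.17) and Acsl1 (-2.81), enzymes of triglyceride and acyl-CoA synthesis, Dgat1 (-1.13) and Hilpda (-0.90) the lower ones. Of the Trem2-linked genes 6 of 13 were higher, among them Axl (5.13), Igf1 (2.07) and Lgals3 (1.84), and Csf1 (-4.48) and Syk (-1.01) were lower. The median log2 changes were 3.92 for the 10 genes, 0.88 for the other lipid-handling genes, 0.72 for the Trem2-linked genes and 0.12 for all genes.

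Against macrophages, epithelial cells could be compared only in the 3 Whole Tumor 1 arrays (6 sums, 5007 genes, 26.2% of genes higher and 22.9% lower in epithelial cells). Trem2, Fabp4 and Lpl did not pass the filter on low counts. Fabp5 was the only one of the 7 tested genes that was higher in epithelial cells, at 126, 48.7 and 70 CPM against 26.7, 42 and 19.8 CPM in macrophages (log2 change 1.52 ± 0.45, edgeR adjusted p = 0.00719). Without Whole 1.1, where 9 of 29 UMIs came from 1 barcode, it was 0.99 (adjusted p = 0.122), and DESeq2 gave an adjusted p of 0.06. The macrophages of this fit were those of Tumor 1, where 5 of the 180 macrophage barcodes were of the alveolar kind. In the Tumor 2 libraries that kind had Fabp5 at 118 to 381 CPM. The part of the mix of kinds in the differences from epithelial cells was not tested. Spp1 did not pass, at 466, 545 and 560.3 CPM in epithelial cells and 698, 538 and 1083 CPM in macrophages (-0.25 ± 0.25, edgeR adjusted p = 0.433). The other 5 were lower in epithelial cells: Apoe (-6.26 ± 0.40), Abca1 (-5.82 ± 0.33), Cd36 (-2.91 ± 0.30) and Plin2 (-1.63 ± 0.27), and Gpnmb, which had 1 UMI there against 157 in macrophages, 121 times higher in macrophages with a counting interval of 21.4 to 4801 times. Trem2 had 1 UMI in all 230 epithelial barcodes. Epithelial cells with more keratin than surfactant UMIs (162 barcodes) had Cd36 in 3.09% of barcodes and Apoe in 11.1%, and those with more surfactant UMIs (63 barcodes) had Cd36 in 41.3% and Apoe in 25.4%. Within Tumor 1 (156 and 40 barcodes) Cd36 was in 2.56% and 35%, with exact intervals of 0.703 to 6.43% and 20.6 to 51.7%, and Apoe in 10.9% and 20%, with intervals that overlap. Each of these Apoe shares lay between the 6.25% of T or NK cells and the 26.9% of B cells, so they are not read as expression. Plin2 was in 51.9% of the barcodes with more keratin and 52.4% of those with more surfactant UMIs. Of the other lipid-handling genes, 26 were tested, 18 lower and 2 higher, the higher ones Pparg (3.48) and Npc2 (1.13), and Msr1 (-8.04), Olr1 (-6.80), Abcg1 (-4.74) and Pltp (-4.40) the lowest. Of the Trem2-linked genes 7 of 12 were lower, Tyrobp (-4.45) the most, and Axl was higher (2.29).

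The tumors were compared with each other in neutrophils, the only single class with at least 10 barcodes in the 3 Whole Tumor arrays of each tumor (6279 genes, 22.5% of genes higher and 21.8% lower in Tumor 2). Macrophages of all kinds together also had enough barcodes, but the kinds differed in number between the tumors, and that comparison was not tested. Of the 10 genes 5 were tested. Abca1 was at 143, 138 and 125 CPM in Tumor 2 and at 404, 434 and 431 CPM in Tumor 1, without overlap (log2 change -0.82 ± 0.24, edgeR adjusted p = 0.00347). The median over all genes was -0.25 on the same scale. With at least 500 genes per barcode the adjusted p was 0.108. Lpl was called higher, with 15 UMIs in Tumor 2, of which 14 lay in Whole 2.1, and 3 in Tumor 1, a CPM ratio of 9.44 with a counting interval of 2.67 to 50.9. Without Whole 2.1 it did not enter the test. Plin2 was at 1910.0, 1554 and 2359.8 CPM in Tumor 2 and 3008, 3884 and 3034 CPM in Tumor 1. These groups did not overlap either, but after TMM scaling the log2 change was 0.08 ± 0.20 (edgeR adjusted p = 0.768). Neutrophil markers made up 28675 to 31816 CPM in the Tumor 2 arrays and 9985 to 12005 CPM in those of Tumor 1, and their part in these values was not tested. Spp1 and Apoe did not pass, but both passed as higher in Tumor 2 without Whole 1.1 (0.98, adjusted p = 0.00594, and 1.42, adjusted p = 0.000149, edgeR). Of the other lipid-handling genes 7 of 27 were higher, Dgat2 (3.51), Dgat1 (3.14), Rxra (2.47) and Mylip (1.77) the most, and 11 lower, Nr1h3 (-5.62), Plin3 (-3.55), Acsl1 (-1.93) and Mgll (-1.63) the most. Of the Trem2-linked genes 5 of 11 were higher, among them Tyrobp (1.73) and Syk (1.36), and 4 lower, among them Cd63 (-1.75).

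At the Healthy/Tumor Border of Tumor 2, Spp1 was higher and Cd36 lower in C1q-gated macrophages. Spp1 was at 2137 CPM in the border library and at 24.9, 410.5 and 234 CPM in the arrays, and in 63.4% of border barcodes against 8 to 17.1%. Its log2 change was 3.24 ± 0.51 (edgeR adjusted p = 0.000363). Cd36 was at 44 CPM at the border and at 373, 324 and 1392 CPM in the arrays, a log2 change of -4.15 ± 0.70 (edgeR adjusted p = 0.000758). Both border values lay outside the range of the arrays. Abca1 also lay outside it, at 787 CPM against 1219.6, 1815 and 2667 CPM, and Trem2 at 398 CPM against 149 to 194 CPM, but neither passed (edgeR adjusted p = 0.172 and 0.372), nor did Apoe. Without Whole 2.2 Abca1 passed (edgeR adjusted p = 0.033). The fit rests on 1 border library and 3 arrays with 2 residual degrees of freedom, 2935 genes were tested, and 0.477% were called higher and 0.443% lower. DESeq2 kept the size of the Spp1 change (3.15) and gave an adjusted p of 0.9996. In the same barcodes the matrix gene Fn1 was at 4990.4 CPM at the border and at 37.3, 86.4 and 175 CPM in the arrays, and the acute-phase gene Saa3 at 408 CPM at the border and at 0 in the 3 arrays, a pair chosen after their values were seen. Both are gate markers of another macrophage kind, and of the same gate Marco was at 0 in all 4 libraries and Prg4 had 1 UMI, at the border. Of the marker lists of other cell types, the neutrophil list summed to 367 at the border against 236 to 269 CPM in the arrays and the monocyte list to 272 against 64.8 to 212 CPM, both above the arrays. The dendritic list summed to 65.2 against 105 to 747 CPM and the endothelial list to 21.2 against 43.2 to 58.5 CPM, both below them, and the epithelial list, at 31 against 0 to 46.8 CPM, lay inside, as did the T or NK, B and fibroblast lists. The C1q list itself was at 8194 against 4213 to 6111 CPM. The part of these in the Spp1 and Cd36 differences was not tested. The largest barcode held 112 of the 1311 Spp1 UMIs of the border library. Of the lists, 0 of 19 other lipid-handling genes (edgeR, 0 also at an unadjusted p under 0.05) and 1 of 12 Trem2-linked genes passed, Ctsd (1.58).

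In the alveolar and Mmp12 kinds of Tumor 2, none of the 10 genes passed between the border and the arrays in edgeR or DESeq2, with 3 and 1 at an unadjusted edgeR p under 0.05. In the alveolar kind 9 were tested among 1925 genes, of which 0.364% were called higher and 0.623% lower. Fabp4 came nearest, at 677 CPM at the border and 296, 274 and 164 CPM in the arrays (1.43 ± 0.41, adjusted p = 0.0737, and 0.0248 without Whole 2.1), and Hilpda of the other lipid-handling genes was lower (-1.85). The border sum has 11 barcodes. In the Mmp12 kind 8 were tested among 2540 genes, of which 0.197% were higher and 0.0787% lower, and the smallest adjusted p of the 8 was 0.738, for Gpnmb. A share of 63.4% of C1q-gated border barcodes with Spp1 was set beside 45.5% of the 11 alveolar-gated and 38.7% of the 31 Mmp12-gated ones.

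In neutrophils both borders could be set against their arrays. Spp1 was at 392 CPM at the Tumor 1 border against 478, 106 and 162 CPM in its arrays, inside their range, and at 648 CPM at the Tumor 2 border against 129, 246 and 107 CPM, above it. The edgeR log2 changes were 1.25 ± 0.33 (adjusted p = 0.00665) and 1.76 ± 0.38 (adjusted p = 0.000746). In Tumor 1 the call was lost without Whole 1.2 (0.82) and with at least 500 genes per barcode (1.21), and DESeq2 called it in neither tumor. Abca1 was at 226 CPM at the Tumor 1 border against 404 to 434 CPM (-0.36 ± 0.29, edgeR adjusted p = 0.514) and at 507 CPM at the Tumor 2 border against 125 to 143 CPM (1.48 ± 0.32, adjusted p = 0.000722), a call that was lost with at least 500 genes per barcode (1.38, adjusted p = 0.0742). Apoe was at 16.7 CPM at the Tumor 1 border against 54.5 to 279 CPM (-2.42 ± 0.53, edgeR adjusted p = 0.000661) and at 146 CPM at the Tumor 2 border against 68.8 to 119.6 CPM, which did not pass. Lymphocyte-gated barcodes had 183 CPM of Apoe, above all of these but the 279 CPM of Whole 1.1, and macrophages made up 0.161% and 32.8% of the barcodes of the borders. The part of free RNA in these values was not tested. Plin2 passed at neither border, at 3250.2 and 2089 CPM. In Tumor 1, 6.86% of the 6279 genes were called higher and 1.47% lower at the border, and in Tumor 2, 3.38% and 5.53%. The border effects themselves differed between the tumors for 3.14% of genes as higher and 7.52% as lower in Tumor 2, and of the 5 genes tested for Abca1 (1.84 ± 0.44, edgeR adjusted p = 0.00169) and Apoe (2.54 ± 0.73, adjusted p = 0.0127). Each tumor has 1 border library, so that the spread comes from the arrays alone. With at least 500 genes per barcode the Abca1 difference was lost (1.79, edgeR adjusted p = 0.0936). The Apoe difference was lost without Whole 1.1 (1.56, edgeR adjusted p = 0.113) or Whole 2.2 (2.39, adjusted p = 0.0703), and that of Plin2, which did not pass, passed without Whole 2.2 (-1.05, adjusted p = 0.0448). At the Tumor 2 border the neutrophil markers summed to 14496 CPM against 28675 to 31816 CPM in the arrays, and at the Tumor 1 border to 10419 against 9985 to 12005 CPM. In the same Tumor 2 neutrophils the dendritic (150 against 1.84 to 46.1 CPM), epithelial (127 against 9.83 to 78.4), T or NK (84.5 against 0 to 60) and monocyte lists (70.4 against 27.7 to 40.5) were above the arrays. The general macrophage (591 against 718 to 1389 CPM) and fibroblast lists (9.39 against 27.7 to 53.4) were below them. The part of all these lists in the Spp1 and Abca1 differences was not tested.

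**Figure D5:**
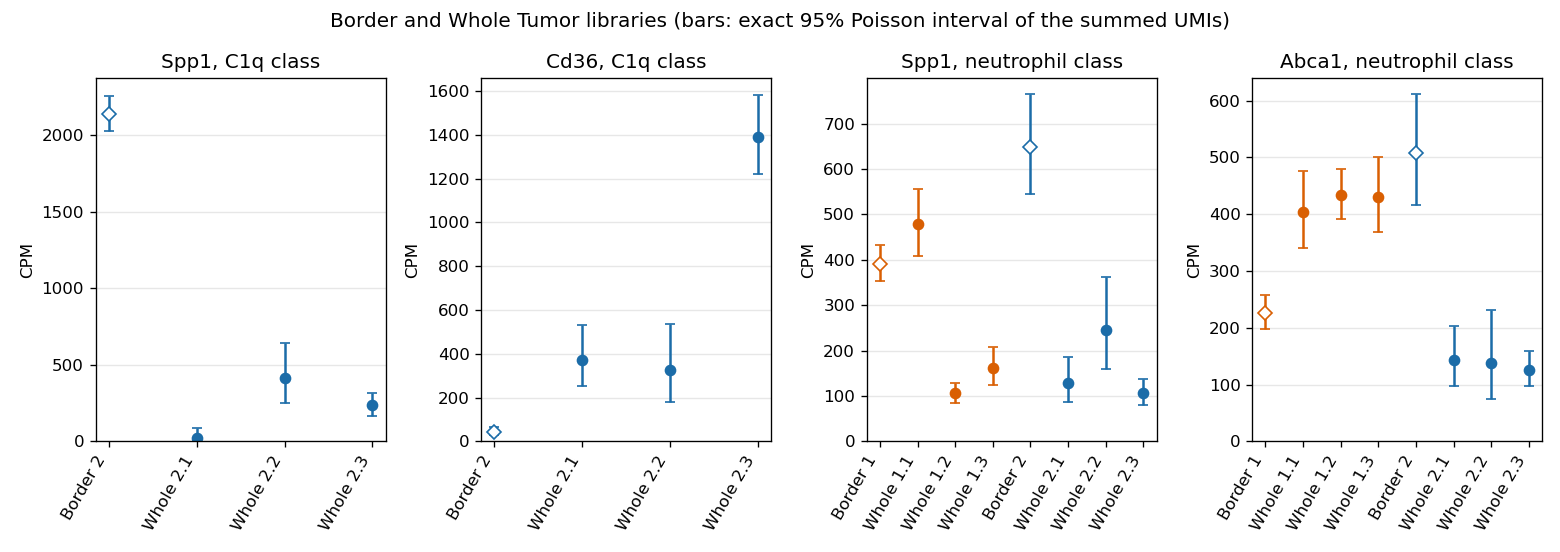
Level (CPM, linear axis from 0) of Spp1 and Cd36 in C1q-gated macrophages and of Spp1 and Abca1 in neutrophils, 1 point per library, with the exact 95% Poisson interval of the summed UMIs, diamonds for border and circles for Whole Tumor libraries. Spp1 in the C1q kind is 2137 CPM at the Tumor 2 border and at most 410.5 CPM in the arrays.

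Of the other lipid-handling genes in neutrophils, 6 of 27 were higher at the Tumor 1 border, Olr1 (1.82), Dgat2 (1.70), Dgat1 (1.18) and Hilpda (1.17) the most, and none were lower. At the Tumor 2 border 2 were higher, Plin3 (2.72) and Acsl1 (1.40), and 2 lower, Dgat2 (-2.09) and Gm2a (-1.43). Of the 11 Trem2-linked genes 3 were higher at the Tumor 1 border, Ctsb (1.30), Ctsd (0.97) and Cd9 (0.95), and at the Tumor 2 border Itgax was higher and Tyrobp lower (-1.13). For the difference of the border effects, Plin3 (3.05) was the only other lipid-handling gene that was higher in Tumor 2, and 4 of 27 and 5 of 11 genes of the lists were lower, with Dgat2 (-3.78) and Olr1 (-2.23) the lowest of the other lipid-handling genes. In epithelial cells only the Tumor 1 border had enough barcodes, 11. There 6 of the 10 genes were tested among 4618 genes, of which 0.606% were called higher and 0.411% lower, and Spp1 was lower, with 2 UMIs against 374 in the arrays, 13.7 times higher in the arrays with a counting interval of 3.75 to 113 (edgeR adjusted p = 0.00235). None of 17 other lipid-handling and 9 Trem2-linked genes passed in edgeR, with 2 and 2 at an unadjusted p under 0.05.

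The genes whose levels were most like those of each of the 10 were ranked by Pearson's r of log2(CPM + 10) over 11 class and tumor sums, among 8832 genes. These points share libraries, and no p is given. They are sums over the gated classes, so the profile of a gate marker is set by the gate, and C1qa is one. Apoe was most like C1qa (0.92), Xylt2 (0.92) and Pmp22 (0.92), Trem2 like Pld4 (0.95), Tifab (0.95) and Lgmn (0.94), and Abca1 like Cd86 (0.95), St8sia4 (0.94) and Pla2g7 (0.93). Fabp4 was most like Acaa1b (0.96), Ppap2b (0.95) and Fabp1 (0.92), Fabp5 like Mavs (0.98), Gstm1 (0.91) and Upf3b (0.91), Lpl like Clmp (0.92), Pelo (0.91) and Pld3 (0.90), and Gpnmb like Rab7l1 (0.92), Cyth3 (0.91) and F7 (0.90). Cd36 was most like Slc39a14 (0.93), Dapk1 (0.92) and Arntl (0.91), Plin2 like Ap1m1 (0.96), Cd274 (0.93) and Hilpda (0.93), and Spp1 like Exosc8 (0.89), Pld2 (0.87) and Ncstn (0.86). Among the 10 themselves the highest r were those of Gpnmb with Lpl (0.80) and Apoe with Abca1 (0.76), and the lowest that of Fabp4 with Abca1 (-0.52).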

How the data were processed

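Single cells of 8 Seq-Well libraries were used. Per the labels, reads were processed with bcl2fastq 2.17.1.14, the Drop-seq Computational Protocol v2.0 and STAR 2.5.2b against mm10, and the deposited values are raw UMI counts per gene and barcode, not normalized by the authors. Barcodes with at least 200 genes were kept. A class needed at least 3 UMIs from at least 2 of its markers, and a macrophage kind at least 2 UMIs of its own list. The members and lists were chosen with earlier results of these data known. Counts were summed per class and library, where at least 10 barcodes were present, and given as CPM, scaled to equal totals. Exact Poisson and binomial 95% intervals cover counting error. Sums were tested with edgeR 4.0.16 (filterByExpr, TMM, quasi-likelihood, R 4.3.3), with Benjamini-Hochberg adjustment over all genes at 0.05, and DESeq2 1.42.0 was an alternative. The arrays of a tumor are technical, so p-values measure the spread between libraries. Doublets were called with Scrublet in scanpy 1.11.5, which marked 57 barcodes (1.46%), and they were kept. Shares were also computed after thinning to 1000 UMIs. The genes named beyond the 10 were, for each list, at most 4 in each direction, those with the largest log2 change among those past the threshold, and the 3 most alike in level to each of the 10. Coordinates are GENCODE M21 (GRCm38). The fits were tested on simulated data. The difference between border effects, the fits without primer-like barcodes or doublets and those within 1 tumor were added after the data were seen. Python 3.11.15 with pandas 2.3.3 and scipy 1.17.1 was used. Of the 4 macrophage kinds compared with each other, 1 is not reported here, nor are certain genes and alleles.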

Additional observations from a re-analysis of the deposited data

Results flagged for a closer look

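In neutrophils the border effect, the log2 change of the border against the Whole Tumor arrays, was larger in Tumor 2 than in Tumor 1 by 1.84 for Abca1 and by 2.54 for Apoe, by an edgeR interaction term (adjusted p = 0.00169 and 0.0127). These differences are signed: for Apoe the called border change was the fall in Tumor 1, and for Abca1 the rise in Tumor 2. Each tumor has 1 border library, so that the test rests on the spread of technical arrays. The Abca1 difference was lost with at least 500 genes per barcode (1.79, adjusted p = 0.0936), and the Apoe difference without Whole 1.1 (1.56, adjusted p = 0.113) or Whole 2.2 (2.39, adjusted p = 0.0703). The part of free RNA and of the different neutrophil marker levels in these differences was not tested.

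Outside the compared classes, Cd36 stood at 973 CPM in endothelial-gated barcodes, and Spp1 at 4660 CPM in fibroblast-gated barcodes, where 26.5% of 34 barcodes held 672 Spp1 UMIs, 288 of them in 1 barcode of Tumor 1 and 192 in 1 barcode of Tumor 2. Both levels lay above those in lymphocyte-gated barcodes.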

How the results depend on the processing

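The 39 called changes of the 10 genes had 525 alternative values. Of these, 500 kept direction and threshold, 25 kept direction only and 0 took the other direction. Of the 39 changes, 26 passed under each alternative in which the gene was tested. An alternative in which the gene did not enter the test is not counted, as for Lpl between the tumors in neutrophils. Of 795 values of the 69 uncalled changes, 18 passed and 80 had the other sign without passing. The cause of these changes was not tested.

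The number of the 10 genes past the threshold in the C1q kind was 5, and it was 3 with the doubled gate, 2 with sums per tumor and 4 to 6 with 1 library left out. In the Mmp12 kind it was 0, and 1 with at least 500 genes, with the doubled gate or with no filter on low counts, and 0 to 2 with 1 library left out. Between the tumors in neutrophils it was 2, and 0 with at least 500 genes, 1 with Whole Tumor arrays only and 1 to 4 with 1 library left out. With the array number as a replicate block it was 1, and deviations of same-numbered arrays had correlations of -0.00242, 0.0101 and -0.0018, so that the numbers do not pair the arrays. At the border, neutrophils had 2 in each tumor, and 1 with at least 500 genes or with DESeq2, and 1 to 2 in Tumor 1 with 1 library left out. The C1q kind had 2, and 1 with DESeq2 and 2 to 3 with 1 library left out, and the alveolar kind had 0, and 0 to 1 with 1 library left out. The difference of border effects had 2, and 1 with at least 500 genes and 1 to 2 with 1 library left out. After thinning, 28 of 60 shares moved by more than 1 SD. The kinds could not be fitted at 20 barcodes per sum.

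Of all genes, 260 passed in the C1q kind (89 to 417 over the alternatives), 655 in the alveolar kind (167 to 730) and 224 in the Mmp12 kind (82 to 240). Epithelial cells against macrophages gave 2457 (1601 to 3113). The border gave 523 (216 to 612) in Tumor 1 neutrophils, 559 (205 to 600) in Tumor 2 neutrophils, 669 (237 to 724) for their difference, 27 (13 to 47) in the C1q, 19 (5 to 30) in the alveolar and 7 (0 to 16) in the Mmp12 kind and 47 (26 to 111) in epithelial cells. Macrophages against neutrophils gave 2715 (2180 to 2933), and Tumor 2 against Tumor 1 in neutrophils 2783 (1858 to 2798), and none of these moved by over 1.5 times.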
